A study of Mus musculus with 23 samples.

Results

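The 8 genes described here set the shape of mitochondria and were followed in mouse brown adipose tissue (BAT). They are Mfn1, Mfn2 and Opa1, whose proteins fuse mitochondria, Oma1 and Yme1l1, which encode the proteases that cut OPA1, and Dnm1l, Fis1 and Mff, whose proteins divide mitochondria. All were chosen by symbol, and all 8 were among the 14651 genes of the table, with reads in each of the 23 mice. All mice were C57BL/6 males of 8–12 weeks, homozygous for an Mcu allele with loxP sites on either side of the second exon (Mcu fl/fl). BAT-Mcu-KO mice also carried Ucp1-Cre, a transgene that makes Cre recombinase from the Ucp1 promoter and so deletes Mcu, the pore of the mitochondrial calcium uniporter, in cells that express Ucp1. Control mice were Mcu fl/fl without the transgene, so loss of Mcu and the transgene itself cannot be told apart. Both genotypes were kept for 6 h at room temperature (RT), in the groups Control RT (n = 6) and BAT-Mcu-KO RT (n = 6), or at 4°C, in the groups Control 4C (n = 5) and BAT-Mcu-KO 4C (n = 6). By the treatment protocol, mice at 4°C were housed singly without food, and the feeding of the RT mice is not given in the sources used here, so cold and lack of food cannot be told apart. The comparisons ask how these genes respond to cold in each genotype, and whether they differ between the genotypes at either temperature.

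Mitochondria join and split continuously. The mitofusins MFN1 and MFN2 are GTPases that tether and fuse outer membranes, and OPA1 fuses inner membranes and holds the cristae closed. Long forms of OPA1 mediate fusion until they are cut, by the ATP-dependent protease YME1L at one site and, under stress or loss of membrane potential, by OMA1 at another. Division is carried out by the dynamin DRP1 (gene Dnm1l), which is drawn from the cytosol to the outer membrane by receptors such as MFF. FIS1 is a small outer membrane anchor for fission factors. OMA1 also cuts DELE1, which then activates the kinase HRI and, through it, translation of the transcription factor ATF4. In brown adipocytes noradrenaline is known to split the mitochondrial network while heat production is turned on.

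Of the 8 genes, 3 passed the test for cold in control mice, and the bases just upstream of their starts are printed here to show the region that lies before each. The sequences are RefSeq promoter windows of build GRCm38.p6, 5′ to 3′ on the gene's own strand, from 250 bases before the most upstream RefSeq start. The runs printed end before the first transcribed base of either annotation. Capitals mark matches to any of the 10 motifs searched, on either strand.
Oma1, chr4:103313596-103313811, plus strand: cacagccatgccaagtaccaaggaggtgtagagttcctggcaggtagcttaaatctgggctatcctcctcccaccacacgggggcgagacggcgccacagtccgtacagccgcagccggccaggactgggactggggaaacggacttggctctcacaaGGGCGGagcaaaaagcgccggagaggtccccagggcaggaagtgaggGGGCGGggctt
Mff, chr1:82724640-82724889, plus strand: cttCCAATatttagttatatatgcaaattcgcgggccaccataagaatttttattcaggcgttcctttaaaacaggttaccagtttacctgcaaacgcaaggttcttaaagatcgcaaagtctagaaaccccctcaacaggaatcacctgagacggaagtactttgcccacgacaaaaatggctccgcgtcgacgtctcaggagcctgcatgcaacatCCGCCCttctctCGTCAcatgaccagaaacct
Mfn1, chr3:32529232-32529464, plus strand: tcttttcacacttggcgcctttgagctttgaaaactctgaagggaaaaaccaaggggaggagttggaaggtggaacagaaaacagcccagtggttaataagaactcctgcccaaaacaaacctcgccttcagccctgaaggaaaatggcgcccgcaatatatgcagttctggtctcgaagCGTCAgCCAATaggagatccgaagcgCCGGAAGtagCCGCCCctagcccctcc
Motifs were counted over the whole 250 bases before the RefSeq start, in the 8 genes as in all promoters. In Yme1l1 the last 136 of these bases lie past the GENCODE start, and they hold every match counted for that gene. The CRE core TGACG, part of the element bound by CREB and ATF factors, was found in the windows of Mff and Mfn1, and also in those of Mfn2 and Yme1l1, against 26.9% of the 9982 promoters of tested genes with a RefSeq window. In Mff it lies 16 to 20 bases before the RefSeq start and in Mfn1 66 to 70 bases before it, both on the minus strand. The whole CRE, TGACGTCA, which contains that core, was in none of the 8 windows and in 2.695% of all. The GC box GGGCGG was in all 8 windows and in 58.7% of all, the CCAAT box CCAAT in 6 of 8 (not in Mfn2 or Oma1) and in 35.9%, and the ETS core CCGGAAG in Mfn1, Yme1l1 and Fis1 and in 13.8%. The NRF1 consensus was in the windows of Opa1 and Oma1 and in 8.295% of all; in Oma1 it lies 14 to 23 bases before the RefSeq start, past the end of the run printed above. The E-box CACGTG (8.395% of all), the ERR core AAGGTCA (2.805%), the longer ERR element TNAAGGTCA that contains it (0.591%) and the ATF4 element TGATGNAAN (1.88%) were in none of the 8 windows. A match describes letters in the window only.

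The libraries held 7129271 to 21006347 reads in genes (median 13602248), and values are normalized counts, that is, reads divided by the size factor of the mouse. Mcu, the deleted gene, ranged from 70.8 to 136 in the 11 control mice and from 15.2 to 42.4 in the 12 BAT-Mcu-KO mice. Ucp1 was 50590 to 70028 at RT and 140888 to 198043 at 4°C, and Ppargc1a 275 to 851 at RT and 7278 to 25446 at 4°C. All 13 brown adipocyte markers were measured. The summed level of 10 skeletal muscle markers ran from 6.22 in Control 4C mouse 3 to 59103 in BAT-Mcu-KO RT mouse 3. Its median was 2204 in Control RT and 13374 in Control 4C mice, and 22278 in BAT-Mcu-KO RT and 3995 in BAT-Mcu-KO 4C mice. None of the 10 was called in either cold comparison, but with so wide a spread this does not show that the groups held equal amounts of muscle. The summed level of 6 endothelial markers was 3072 to 4378 at RT and 4483 to 7602 at 4°C. Of these markers, cold called 4 of 6 in control and 3 of 6 in BAT-Mcu-KO, against 46.0% and 43.3% of all genes. In whole tissue, fewer cells of a type and less RNA per cell cannot be told apart.

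After 6 h at 4°C, control BAT held less than 50% of the Oma1 transcript found at RT, and more Mff and Mfn1. In BAT-Mcu-KO mice Oma1 fell and Mff rose, and Mfn1 did not pass the test. Opa1, Mfn2, Yme1l1, Dnm1l and Fis1 did not pass in either genotype. Of the 8 genes, 3 were called in control mice (limma on log2 of normalized count + 1, Benjamini-Hochberg adjusted p under 0.05 over all genes), against 46.0% of all genes tested. The 2 that rose stand against 22.3% of all genes called higher, and the 1 that fell against 23.7% called lower. In BAT-Mcu-KO mice 2 of 8 were called, against 43.3% of all genes. One was higher, where 21.4% of all genes were, and 1 was lower, where 21.9% were. The median size of the log2 fold change over the 8 genes was 0.19 in control and 0.11 in BAT-Mcu-KO, against 0.45 and 0.40 over all genes. Shares over 8 genes are coarse, and nothing is read from their distance to those over all genes.

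**Figure D1:**
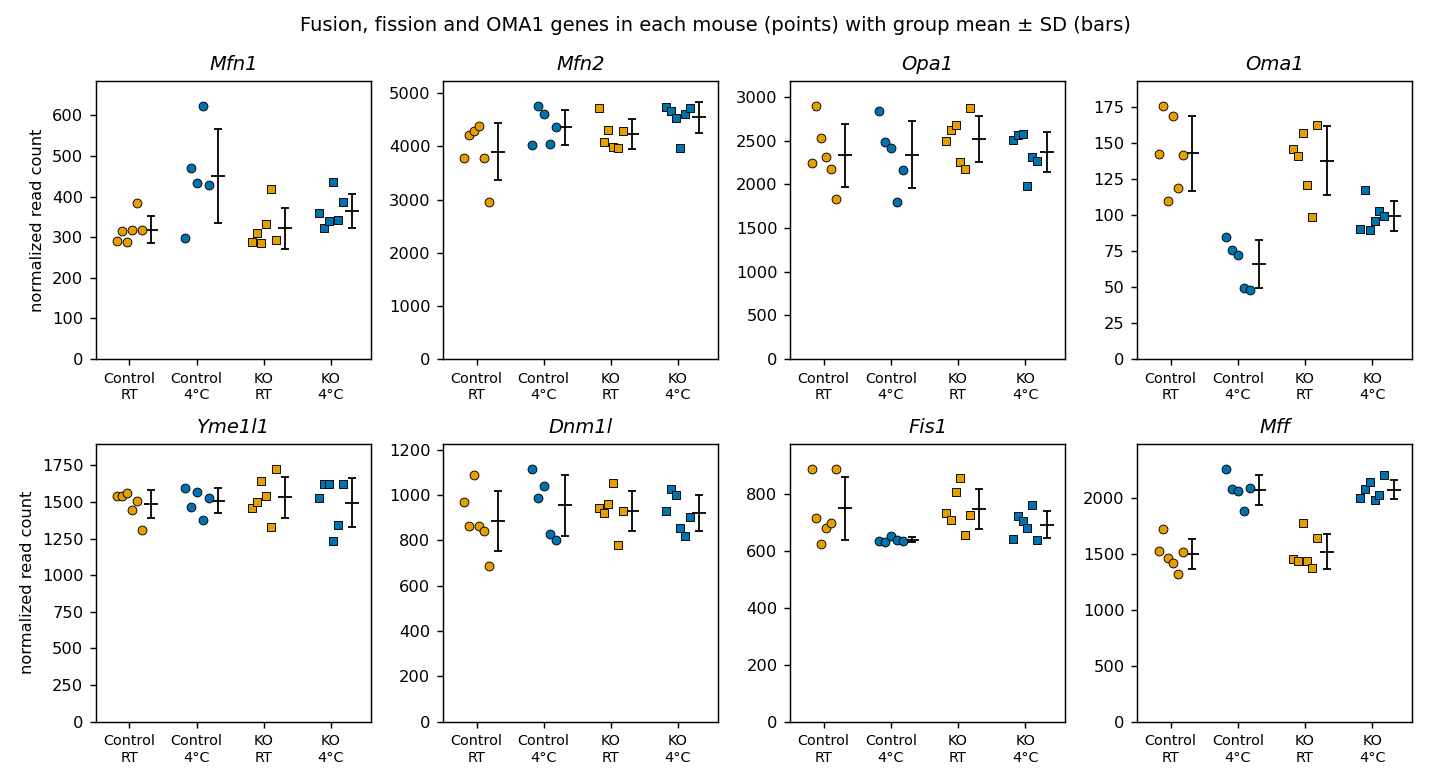
Normalized read counts (vertical axes, starting at 0) of the 8 genes in each mouse, in the 4 groups on the horizontal axis. Points are mice and bars the group mean ± SD. All 5 Control 4C mice lie below all Control RT mice for Oma1, and all 11 mice at 4°C lie above all 12 at RT for Mff.

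Mfn1 (ENSMUSG00000027668.13, chr3:32529465-32579239, plus strand, GRCm38) encodes one of the outer membrane mitofusins. Its normalized count was 288 to 383 (median 316) in Control RT mice and 297, 470.4, 434, 622 and 428 in Control 4C mice 1 to 5. Of the 5 cold mice, 4 lay above every RT mouse, and mouse 1, the one with the fewest reads, lay among them. The mean rose from 319 ± 34.2 (SD, n = 6) to 451 ± 116 (SD, n = 5), and the log2 fold change was 0.46 (SE 0.14, limma adjusted p = 0.0071). In BAT-Mcu-KO mice the counts were 286 to 419 (median 301) at RT and 322 to 435 (median 351) at 4°C, and the groups overlapped. That log2 fold change was 0.19 (95% interval -0.08 to 0.45, limma adjusted p = 0.27). The call in control mice was lost when the 8 libraries with a summed muscle marker level over 10000 were left out, which kept 2 Control 4C mice, numbers 1 and 3 (0.18, SE 0.17, limma adjusted p = 0.47).

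Mfn2 (ENSMUSG00000029020.13, chr4:147873599-147904704, minus strand), the other mitofusin, which also tethers mitochondria to the endoplasmic reticulum, was the most abundant of the 8. Control RT mice held a normalized count of 2953 to 4379 (median 4002), and the values were 4033, 4755, 4609, 4039 and 4361 in Control 4C mice 1 to 5. In BAT-Mcu-KO mice it was 3973 to 4731 (median 4184) at RT and 3977 to 4741 (median 4644) at 4°C. The ranges overlapped in both genotypes, although 2 of the 5 cold control mice exceeded all RT ones. The cold log2 fold change was 0.17 (95% interval -0.01 to 0.35, limma adjusted p = 0.12) in control and 0.10 (95% interval -0.07 to 0.28, limma adjusted p = 0.33) in BAT-Mcu-KO. A rise of 0.35 in control is the largest that this interval allows.

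Opa1 (ENSMUSG00000038084.16, chr16:29579334-29654884, plus strand), the inner membrane fusion GTPase, had nearly equal means in the cold and at RT. The normalized count ran from 1835 to 2895 (median 2275) in Control RT mice and was 2836, 2486, 2417, 1798 and 2167 in Control 4C mice 1 to 5. The cold log2 fold change in control was 0.00 (95% interval -0.23 to 0.23, limma adjusted p = 0.98). In BAT-Mcu-KO mice the counts were 2181 to 2874 (median 2561) at RT and 1987 to 2579 (median 2413) at 4°C, a log2 fold change of -0.09 (95% interval -0.31 to 0.13, limma adjusted p = 0.55). Counting by exons pools the splice forms of Opa1, and the cleavage of its protein by OMA1 and YME1L leaves no trace in RNA, so neither was measured here.

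Oma1 (ENSMUSG00000035069.3, chr4:103313812-103371868, plus strand) encodes the stress-activated protease of OPA1 and DELE1, and had the largest change of the 8. Control RT mice had a normalized count of 109 to 176 (median 142), against 85.0, 75.9, 72.2, 49.2 and 48.1 in Control 4C mice 1 to 5. Every cold control mouse lay below every RT one. The mean fell from 143 ± 26.1 (SD, n = 6) to 66.1 ± 16.6 (SD, n = 5), so it fell by 53.7%, with a log2 fold change of -1.12 (SE 0.17, limma adjusted p = 4.8e-06). In BAT-Mcu-KO mice the counts were 98.5 to 163 (median 143) at RT and 89.5 to 117 (median 97.7) at 4°C, with 3 of the 6 cold mice below every RT mouse. There the mean fell from 138 ± 24.1 to 99.2 ± 10.4 (SD, n = 6 each), so it fell by 27.9%, with a log2 fold change of -0.45 (SE 0.16, limma adjusted p = 0.022).

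Oma1 was also the least deeply counted of the 8, with 42 to 187 reads per library. Counting error alone would give a coefficient of variation of 13.6% in Control 4C mice, where 25.1% was seen, and 9.69% in BAT-Mcu-KO 4C mice, where 10.5% was seen. The call in BAT-Mcu-KO mice was lost without RT mouse 3 (-0.41) or RT mouse 6 (-0.40), and without the 8 libraries with most muscle transcripts (-0.38, limma adjusted p = 0.15). The RT mice 3 and 6 had the highest Oma1 counts of their group, 156.9 and 162.9, and summed muscle marker levels of 59103 and 47160.3. BAT-Mcu-KO RT mouse 4, with a muscle level of 40952, had an Oma1 count of 121. In control mice the fall without those 8 libraries was -0.84 (limma adjusted p = 0.0048).

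Yme1l1 (ENSMUSG00000026775.9, chr2:23156369-23199260, plus strand), the ATP-dependent inner membrane protease that also cuts OPA1, held nearly the same level in all groups. Normalized counts of 1307 to 1559 (median 1522) were measured in Control RT mice and of 1596, 1467.5, 1569, 1379.6 and 1529.95 in Control 4C mice 1 to 5. In BAT-Mcu-KO mice it was 1329 to 1724 (median 1519.99) at RT and 1232 to 1622 (median 1572) at 4°C. All the ranges overlapped, and the cold log2 fold change was 0.03 (95% interval -0.15 to 0.20, limma adjusted p = 0.83) in control and -0.04 (95% interval -0.20 to 0.12, limma adjusted p = 0.72) in BAT-Mcu-KO. Quantile normalization called both Opa1 and Yme1l1 lower in cold BAT-Mcu-KO mice, at -0.26 (limma adjusted p = 0.029) and -0.20 (limma adjusted p = 0.031).

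Dnm1l (ENSMUSG00000022789.15, chr16:16312230-16358959, minus strand), which encodes the fission GTPase DRP1, did not pass in either genotype. In Control RT mice its normalized count was 688 to 1086 (median 863), and it was 1115, 988, 1038, 826 and 802 in Control 4C mice 1 to 5. In BAT-Mcu-KO mice it was 779 to 1051 (median 936) at RT and 821 to 1025 (median 914) at 4°C. The cold log2 fold change was 0.11 (95% interval -0.11 to 0.33, limma adjusted p = 0.42) in control and -0.01 (95% interval -0.22 to 0.19, limma adjusted p = 0.92) in BAT-Mcu-KO. Reads were counted irrespective of strand, and 4.67% of the exonic bases of Dnm1l are shared with the antisense gene Gm49521, so its count is uncertain by whatever that transcript adds.

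Fis1 (ENSMUSG00000019054.13, chr5:136953275-136966234, plus strand), a small outer membrane anchor for fission factors, was the member closest to the threshold. Its normalized count was 627 to 889 (median 708) in Control RT mice and 635, 633, 655, 639.8 and 637 in Control 4C mice 1 to 5. The 5 cold mice lay within 633 and 655, inside the RT range. Their coefficient of variation, 1.35%, was below the 4.37% that counting error alone would give, and the RT mice varied by 14.8%. The cold log2 fold change in control was -0.22 (SE 0.09, limma adjusted p = 0.054). DESeq2 and edgeR, run on the recovered reads, called it, at -0.23 each (adjusted p = 0.042 and 0.0396). In BAT-Mcu-KO mice the counts were 657 to 857 (median 729) at RT and 641 to 763 (median 693) at 4°C, a log2 fold change of -0.11 (95% interval -0.29 to 0.07, limma adjusted p = 0.33).

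Mff (ENSMUSG00000026150.14, chr1:82724890-82752394, plus strand), the outer membrane receptor that recruits DRP1, rose in both genotypes by almost the same amount. Its normalized count was 1327 to 1728 (median 1494.5) in Control RT mice and 2263, 2082, 2062, 1884 and 2091 in Control 4C mice 1 to 5. In BAT-Mcu-KO mice it was 1375 to 1780.2 (median 1449) at RT and 1987 to 2210.0 (median 2059) at 4°C. In both genotypes every cold mouse lay above every RT mouse. The mean rose by 38.6% in control, from 1498 ± 134 (SD, n = 6) to 2077 ± 135 (SD, n = 5), with 0.47 as its log2 fold change (SE 0.08, limma adjusted p = 1.7e-05). It rose by 36.5% in BAT-Mcu-KO, from 1522 ± 155 to 2078 ± 87.0 (SD, n = 6 each), a log2 fold change of 0.45 (SE 0.07, limma adjusted p = 1.7e-05). Quantile normalization gave 0.28 in either genotype and kept both calls. The noncoding gene C430014B12Rik, on the opposite strand, shares 2.0% of the exonic bases of Mff.

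Between BAT-Mcu-KO and control mice, none of the 8 genes passed the test at either temperature. At RT 0 of 8 were called, where 0.0478% of all genes (7 of 14651) were, and at 4°C 0 of 8, where 0.0751% (11 genes) were. With limma, 0 of the 8 genes had an unadjusted p under 0.05 at RT, where 754 of all 14651 had, and 1 had at 4°C, where 1023 of all had. DESeq2 and edgeR called 0 of 8 at either temperature, and at 4°C each had 2 of the 8, Oma1 and Mfn1, at an unadjusted p under 0.05. At RT the log2 fold changes of BAT-Mcu-KO against control lay between -0.05 for Oma1 and 0.13 for Mfn2, and the 8 intervals together reached from -0.38 to 0.34. At 4°C Mff differed by 0.00 (95% interval -0.16 to 0.16) and Mfn1 by -0.27 (95% interval -0.56 to 0.01, limma adjusted p = 0.72). Without the 8 libraries with most muscle transcripts the Mfn1 difference was 0.06.

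Oma1 was the gene with an unadjusted limma p under 0.05 at 4°C. All 6 BAT-Mcu-KO mice, at 89.5 to 117, lay above all 5 control mice, at 48.1 to 85.0, and the highest control and lowest BAT-Mcu-KO mouse were only 85.0 and 89.5. How many of all genes separate groups in this way was not counted, here or for cold. The log2 fold change was 0.61 (95% interval 0.27 to 0.95, limma unadjusted p = 0.0011), and the adjusted p was 0.31. Over the alternatives run the adjusted p ranged from 0.121 to 0.840, and without the 8 libraries with most muscle transcripts the log2 fold change was 0.30. Cold in control and genotype at 4°C use the same 5 Control 4C mice, so the larger fall of Oma1 in control and its higher level in BAT-Mcu-KO at 4°C are not separate observations.

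The difference between the genotypes in their cold response was tested as the interaction, and limma called 0 of the 8 genes and 0.0% of all genes. At an unadjusted p under 0.05 it had 1 of the 8 genes and 878 of all 14651. DESeq2 called 0 of the 8 and 28 of all genes, and edgeR 0 of the 8 and 0 of all. For Oma1 the cold response was weaker in BAT-Mcu-KO by 0.66 on the log2 scale (95% interval 0.19 to 1.13, limma unadjusted p = 0.00765), with an adjusted p of 0.78 that ranged from 0.253 to 0.985 over the alternatives. For Mfn1 the interaction was -0.28 (95% interval -0.67 to 0.11, limma adjusted p = 0.87) and for Mff -0.02 (95% interval -0.24 to 0.20, limma adjusted p = 0.98). A difference between the genotypes in the cold response of Oma1 or Mfn1 was not shown.

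**Figure D2:**
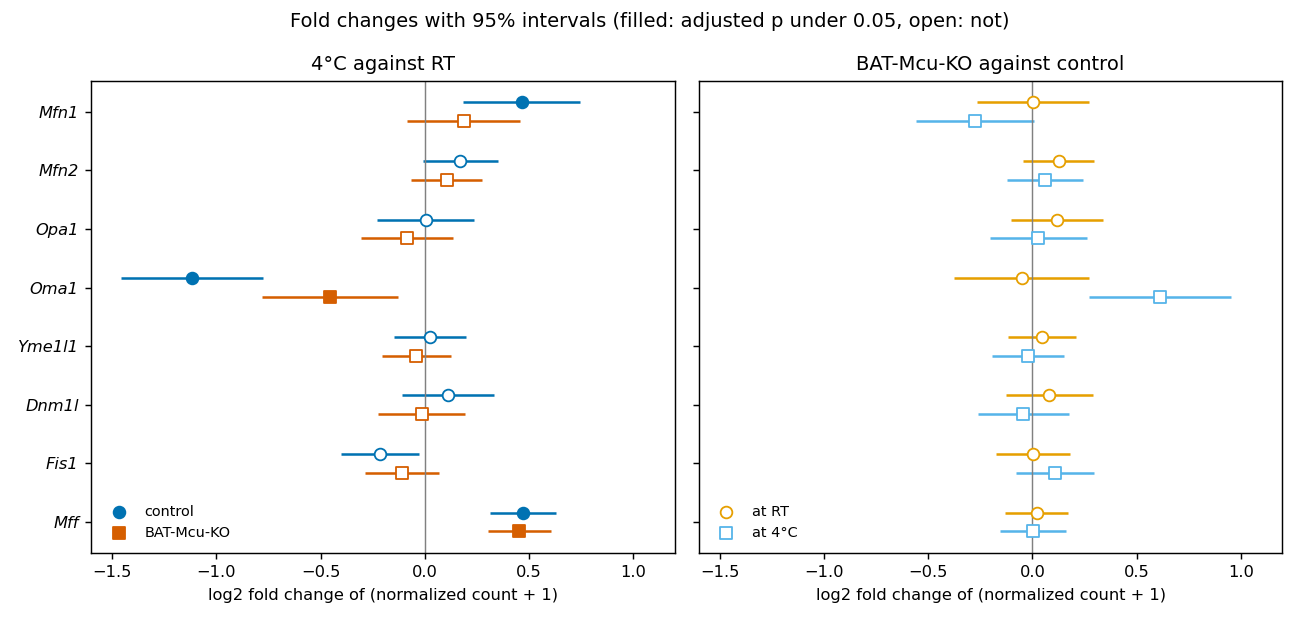
Log2 fold changes of normalized count + 1 (horizontal axes) of the 8 genes, for 4°C against RT in each genotype (left) and BAT-Mcu-KO against control at each temperature (right). Points are limma estimates, lines 95% intervals, and filled points have an adjusted p under 0.05. Oma1, Mff and Mfn1 are filled for control and Oma1 and Mff for BAT-Mcu-KO on the left, and no point is filled on the right.

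Per kilobase of exonic sequence in the GENCODE annotation, the levels in Control RT mice spanned more than an order of magnitude. Mfn2 stood highest at 751 ± 102 normalized counts per kilobase (SD, n = 6), followed by Fis1 at 438 ± 64.9 and Opa1 at 296 ± 45.3. Fis1 (366 to 519) and Opa1 (233 to 368) touched, and Mfn2 (568 to 843) overlapped neither. Yme1l1 (185 ± 11.9), Dnm1l (170.0 ± 25.7) and Mff (154 ± 13.8) came next, with overlapping ranges. Oma1 (66.6 ± 12.2) and Mfn1 (52.2 ± 5.59) were lowest and overlapped at RT. In Control 4C mice they no longer did, at 22.4 to 39.6 for Oma1 and 48.6 to 102 for Mfn1 per kilobase.

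This order depends on the length used. Mff has 16 annotated transcripts whose exons add up to 9757 bases, while the median length of its coding transcripts is 1501.5 bases. Per kilobase of the median coding transcript, Mff was at 998 (884 to 1151) in Control RT mice, level with Fis1 at 954 (797 to 1131) and overlapping Mfn2 at 1206 (913 to 1354). Mfn1 then stood at 199 (179.7 to 239) and Oma1 was lowest at 74.6 (57.2 to 91.7).

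Within a mouse, the balance between paired factors can be given as a ratio of normalized counts, with no test since each ratio restates its 2 genes. Oma1 was 0.0968 ± 0.0193 of Yme1l1 in Control RT mice (SD, n = 6) and 0.0436 ± 0.00968 in Control 4C mice (n = 5), with ranges of 0.0702 to 0.117 and 0.0314 to 0.0532 that did not meet. In BAT-Mcu-KO mice it was 0.0894 ± 0.0105 at RT and 0.0671 ± 0.00982 at 4°C (n = 6 each), and the ranges, 0.0741 to 0.1 and 0.0552 to 0.0780, overlapped. Mff was 2.03 ± 0.305 times Fis1 in Control RT and 3.25 ± 0.226 times in Control 4C mice. For BAT-Mcu-KO mice the same ratio was 2.04 ± 0.207 at RT and 3.01 ± 0.264 at 4°C. In both genotypes the lowest cold mouse (2.94 and 2.67) exceeded the highest RT mouse (2.41 and 2.26). Mff to Dnm1l, receptor to GTPase, averaged 1.73 at RT and 2.20 at 4°C in control, and in BAT-Mcu-KO 1.64 and 2.27. Mfn1 to Mfn2 stayed between 0.0611 and 0.154 in all mice, with overlapping groups.

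**Figure D3:**
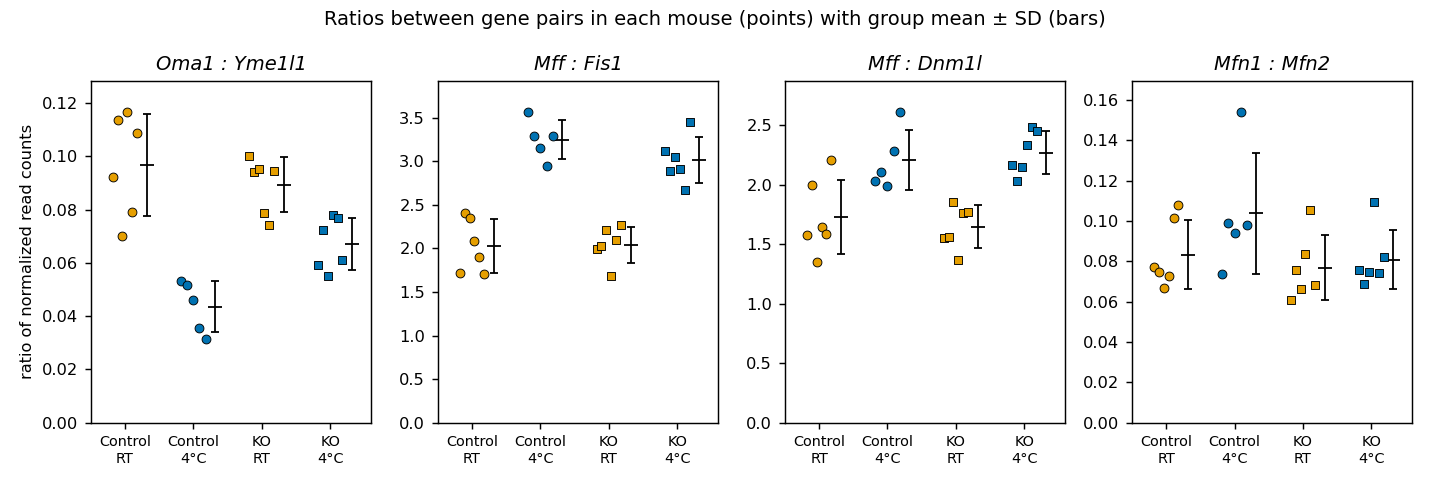
Ratios of the normalized read counts of 4 gene pairs (vertical axes, starting at 0) in each mouse, by group on the horizontal axis. Points are mice and bars the group mean ± SD. Oma1 to Yme1l1 is lowest in the 5 Control 4C mice and Mff to Fis1 is above 2.6 in every cold mouse.

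Mice of the same group also varied together. After each group's mean was taken away on the log2 scale, Opa1 and Yme1l1 went together over the 23 mice (Pearson r = 0.72), as did Opa1 and Dnm1l (0.66) and Yme1l1 and Dnm1l (0.66). Mfn1 ran against every other gene, most against Opa1 (-0.72), then Mff (-0.61), Oma1 (-0.60), Dnm1l (-0.58) and Yme1l1 (-0.57), and least against Mfn2 (-0.22) and Fis1 (-0.19). Control 4C mouse 4, for example, had the highest Mfn1 count of its group (622) and the lowest Opa1 count (1798). Each pair of values shares a library and a size factor, so these are descriptions.

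Other properties of the libraries moved with the same deviations. Total reads went with Mfn1 at r = 0.39 and with Opa1 at -0.51 and Oma1 at -0.42. The summed endothelial markers went with Mfn1 at 0.49, with Oma1 at -0.54 and with Fis1 at -0.55. The share of reads from the mitochondrial genome went with Opa1 at -0.56 and with Mff at -0.52. The summed muscle markers went with the 8 genes at -0.05 to 0.26. The part of total reads, endothelial markers and mitochondrial share in the results was not tested. For muscle, the fit without the 8 libraries with most muscle transcripts lost the Mfn1 call in control and the Oma1 call in BAT-Mcu-KO. That fit also held fewer mice, and the 2 effects were not separated.

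**Figure D4:**
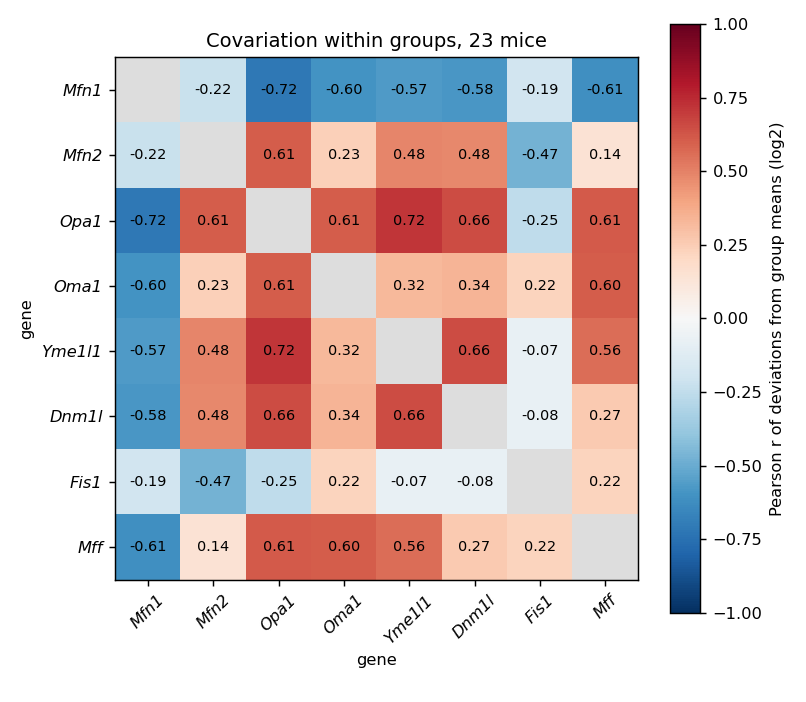
Pearson correlations between the 8 genes (both axes) of each mouse's deviation from its group mean on the log2 scale, 23 mice. The color scale runs from -1 (blue) to 1 (red). The row of Mfn1 is negative against every other gene, and Opa1, Yme1l1 and Dnm1l form a positive block at 0.66 to 0.72. Opa1 is also at 0.61 with each of Mff, Oma1 and Mfn2.

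Over all 23 mice on the log2 scale, the genes whose pattern was most like that of Oma1 were Pts, an enzyme of tetrahydrobiopterin synthesis (Pearson r = 0.90), and Rpe, an enzyme of the pentose phosphate pathway (0.895). Next came 2810402E24Rik (0.88). Mff was matched most closely by Trim32, a ubiquitin ligase (0.96), Serinc1 (0.96) and Dnajc11, a partner of the MICOS complex (0.96). Mfn1 was nearest to Git1 (0.885), Atp13a3 (0.87) and Cebpb, a transcription factor (0.85). Fis1 was nearest to 2410015M20Rik, the MICOS subunit MIC13 (0.87), Phyh (0.86) and Ndufb10, a complex I subunit (0.85). Opa1 and Dnm1l shared Acbd5, a peroxisomal tether protein, among their 3 nearest genes (0.84 and 0.81). Opa1 was the nearest gene to Yme1l1 at 0.72, and Pdpr, a regulator of pyruvate dehydrogenase, the nearest to Mfn2 at 0.896.

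Of 49 further genes of mitochondrial dynamics and inner membrane upkeep, 47 were measured. Cold called 26 of them in control mice, 14 up and 12 down (55.3% of the 47, against 46.0% of all genes), and 16 in BAT-Mcu-KO mice, 9 up and 7 down (34.0%, against 43.3%). Called in both genotypes in the same direction were 15, of which 9 rose and 6 fell. Over all genes 34.8% were called in the same direction in both. The median log2 fold change of the 47 genes was 0.01 in control and 0.02 in BAT-Mcu-KO, against -0.02 for all genes in each. The comparisons within each list are counts only.

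Among 4 other fusion genes, 2 rose and 1 fell in each genotype. Pld6, a mitochondrial phospholipase of the outer membrane, rose (log2 fold change 0.65 in control and 0.67 in BAT-Mcu-KO), as did Slc25a46, an outer membrane partner of the mitofusins (0.71 and 0.42). Fam73b, now Miga2, which acts with that phospholipase, fell (-0.82 and -0.85), from a mean of 2625 to 1495 normalized counts in control mice.

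Of 8 measured genes among 10 other fission factors, 3 rose and 1 fell in control, and 2 rose and 1 fell in BAT-Mcu-KO. Mtfr1, a fission regulator, rose by 0.72 and 0.57 and Mtfp1, an inner membrane fission protein, by 0.35 in both, while Mtfr1l was lower (-0.30 and -0.33). Of 7 regulators that modify DRP1 or the mitofusins, 3 rose and 3 fell in control and 2 rose and 2 fell in BAT-Mcu-KO. Senp5, which removes SUMO from DRP1, rose by 1.28 and 1.15, and Mul1, an outer membrane ligase, by 0.58 and 0.67. Akap1, which anchors protein kinase A at the outer membrane, was lower (-0.98 and -0.99), as was Park2, the ubiquitin ligase parkin (-0.55 in both).

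Genes of mitochondrial protein upkeep and of cristae formed a pair of lists. Of 11 proteases, prohibitins and related genes, 2 rose and 1 fell in control, and 1 fell in BAT-Mcu-KO. Of 10 MICOS and cristae genes, 1 rose and 5 fell in control, and 1 rose and 1 fell in BAT-Mcu-KO. Dnajc11 was the one that rose (0.74 and 0.75), and Chchd6, the subunit MIC25, fell in both genotypes (-0.35 and -0.31). Of 4 genes for mitochondrial transport, 2 rose in control and 1 in BAT-Mcu-KO, Trak2, a motor adaptor, in both (1.41 and 1.14).

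Of the genes of the pathway from OMA1 to ATF4, Atf4 rose strongly in both genotypes. Its log2 fold change was 2.30 (SE 0.11) in control and 1.88 (SE 0.10) in BAT-Mcu-KO. That pathway acts on translation of ATF4, which was not measured here, so a part of OMA1 in the Atf4 rise was not tested. 0610009O20Rik, now Dele1, whose protein is the OMA1 substrate of this pathway, fell with Oma1 (-0.51 in control and -0.66 in BAT-Mcu-KO). Eif2ak1, the HRI kinase, did not pass (0.13 and 0.10). Atf4 was also the only one of the 47 genes called between genotypes, lower in BAT-Mcu-KO at 4°C by 0.66 on the log2 scale (SE 0.11, limma adjusted p = 0.015). None of the 47 was called by genotype at RT or in the interaction with limma.

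**Figure D5:**
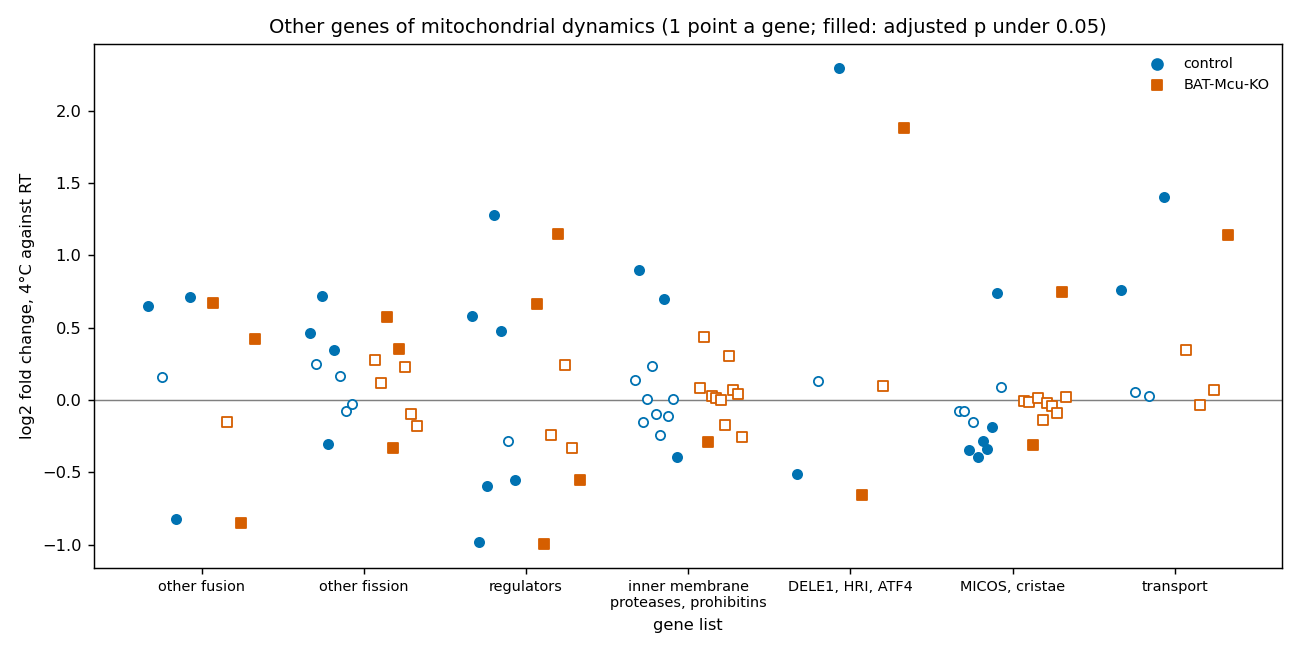
Log2 fold changes of 4°C against RT (vertical axis) of the 47 measured genes of 7 lists (horizontal axis), 1 point a gene and genotype. Circles are control and squares BAT-Mcu-KO, and filled points have a limma adjusted p under 0.05. Atf4 is the highest point in either genotype, and more circles than squares are filled, 26 against 16.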

How the data were processed

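BAT RNA from 23 mice was sequenced by the authors from Smart-seq2 libraries as 2 × 25 bp paired reads, aligned to mm10 with STAR 2.4.0j and GENCODE M7, and counted with HTSeq as unique exonic reads irrespective of strand. Genes with low counts were removed (in the table, the 6 highest libraries of every gene have 9 or more reads). The deposited signal is the normalized count, reads divided by the DESeq2 size factor. All values gave whole reads at a tolerance of 0.05, and recovered reads were used for depth, DESeq2 and edgeR. A second table of the authors' own fold changes and p-values was not used, and 0 per-sample columns were left out. Of the gene symbols, 19 had been turned into dates and were left as they stand.

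Groups and columns were taken from the sample labels. The main test was limma 3.58.1 (R 4.3.3) on log2(normalized count + 1), with 4 group means, a trend in the variance and all 23 mice, which follows the genotype and temperature design of the study. The p-values were adjusted by Benjamini-Hochberg over 14651 genes and called under 0.05. Low genes are understated by the pseudocount of 1. Intervals are 95% intervals of that fit. No label names litters or cages. The p-values set the group differences against the spread between these mice, which were taken as independent. Alternatives were pseudocounts of 0.5 and 10, filters (mean of 50 or more, or 8 or more in every mouse), quantile, TMM and 75th percentile scaling, no trend, only the compared groups, a replicate block, DESeq2 1.42.0, edgeR 4.0.16, each mouse left out, and, added after seeing the data, leaving out libraries with most muscle transcripts. The script was tested on simulated data.

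The 8 genes, the pathway and marker lists, the motifs and the tests were chosen with earlier results of these data known. All 8 genes are named. Of the other lists, up to 3 genes per list and direction are named, those called by cold in both genotypes with the largest mean change. For Oma1, Mff, Mfn1 and Fis1 the 3 genes with the highest correlation are named, and for the other members only some of them. Eif2ak1 was named after its values were seen. Of the other marker lists, 3 of 7 macrophage, 0 of 6 fibroblast, 0 of 1 measured lymphocyte, 1 of 5 Schwann cell and 11 of 13 brown adipocyte genes were called by cold in control mice, and 5, 1, 1, 2 and 7 in BAT-Mcu-KO mice. Positions are from GENCODE M21 (GRCm38) and promoter windows from RefSeq (GRCm38.p6).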

Additional observations from a re-analysis of the deposited data

Results flagged for a closer look

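By Dixon's gap criterion 3 values stood apart from the rest of their group, of 32 sets of a gene and a group looked at, where chance gives about 1 in 20. Control RT mouse 5 had an Mfn1 normalized count of 383, with the next mouse at 319. BAT-Mcu-KO RT mouse 5 had an Mfn1 normalized count of 419, with the next at 333. BAT-Mcu-KO 4C mouse 4 had an Mfn2 normalized count of 3977, with the next lowest at 4542. Leaving out each of these mice in turn ended no call among the 8 genes.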

How the results depend on the processing

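Over 40 pairs of gene and comparison and 36 alternatives, 1432 fold changes were recomputed, of which 1345 kept their direction and side of the threshold, 4 lost a call, 13 gained one and 70 changed sign. No called fold change changed sign. Sign changes were of uncalled values, and their cause was not tested. The number of genes called for cold in BAT-Mcu-KO mice was 4 under quantile normalization (Opa1 and Yme1l1 added), 1 without the libraries with most muscle transcripts, and 1 to 2 when 1 mouse at a time was left out. In control mice it was 3 to 4 with 1 mouse left out, 4 under DESeq2, edgeR, TMM, quantile and 75th percentile scaling and both filters, each adding Fis1, and 2 without the libraries with most muscle transcripts, where Mfn1 was lost.

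Under quantile normalization the sign changed for cold in control in Opa1 (-0.19), Yme1l1 (-0.16) and Dnm1l (-0.0503), for cold in BAT-Mcu-KO in Mfn2 (-0.0335), for genotype at RT in Mfn1 (-0.0184), Fis1 (-0.0165) and Mff (-0.0146), and in Mff for genotype at 4°C (-0.0135) and the interaction (0.00111). Scaling to the 75th percentile did so for cold in control in Opa1 (-0.11) and Yme1l1 (-0.0835), for genotype at RT in Mfn1 (-0.0237), Fis1 (-0.0253) and Mff (-0.00668), for genotype at 4°C in Yme1l1 (0.00835) and for the interaction in Mff (0.0379). With that scaling the median cold response over the whole table in control went from -0.02 to -0.13, and 38.2% of the calls were higher, against 48.5%. Cold in control for Opa1 was -4.61e-06 with TMM scaling and -0.000289 with edgeR, and genotype at RT for Fis1 was -0.00582 with edgeR and -0.00468 with DESeq2.

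Without the libraries with most muscle transcripts the sign changed for cold in BAT-Mcu-KO in Yme1l1 (0.0161) and Dnm1l (0.0214), for genotype at RT in Yme1l1 (-0.0523), Fis1 (-0.0891) and Mff (-0.0684), for genotype at 4°C in Mfn1 (0.0579), Opa1 (-0.20) and Mff (-0.0458), and for the interaction in Mff (0.0226). This kept 6 Control RT, 2 Control 4C, 3 BAT-Mcu-KO RT and 4 BAT-Mcu-KO 4C mice. With 1 mouse left out, cold in control ranged from -0.0698 to 0.0944 for Opa1 and -0.0106 to 0.057 for Yme1l1, and cold in BAT-Mcu-KO from -0.0644 to 0.022 for Dnm1l and -0.0805 to 0.0135 for Yme1l1. Genotype at RT ranged from -0.0741 to 0.059 for Mfn1, -0.12 to 0.0400 for Oma1, -0.0459 to 0.0548 for Fis1 and -0.0243 to 0.0641 for Mff. Genotype at 4°C ranged from -0.0522 to 0.0333 for Yme1l1, -0.10 to 0.0158 for Dnm1l, -0.0619 to 0.10 for Opa1 and -0.0322 to 0.034 for Mff, and the interaction from -0.0618 to 0.0266 for Mff and -0.10 to 0.0128 for Mfn2.

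The main test did not pair mice by replicate number. Same-numbered mice were not alike at RT or across temperatures, but at 4°C they often were, and why was not tested. Same-numbered deviations from the group means correlated at -0.20 to 0.22, over 0.1 in 2 of 5 pairs at 4°C and in 0 elsewhere, and 7 of 10 mice at 4°C, 1 of 12 at RT and 0 across temperatures correlated best with their own number. A fit with the number as a replicate block called 3 and 2 of the 8 genes for cold and changed the sign of Opa1 for cold in control (-0.00945) and of Mff for genotype at 4°C (-0.013). It called 7 genes in all for genotype at 4°C, against 11. DESeq2 called 20, 23 and 28 genes for genotype at RT, at 4°C and the interaction, and edgeR 7, 6 and 0. With only the compared groups 3 and 2 genes were called by genotype at RT and 4°C, without the muscle libraries 4 and 5, and without the trend 7 and 7. Depth limits Oma1 most, at 42 to 187 reads per library.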
